A study of Mus musculus with 20 samples.

Results

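Fos, Fosb, Fosl1, Fosl2, Jun, Junb, Jund, Atf3, Egr1 and Ier2 were followed across 5 cell populations sorted from mouse dorsal epidermis. These 10 genes, the subunits of the transcription factor AP-1 and 3 immediate early genes that are commonly read with them, were taken by symbol from the 53380 genes of the normalized count table, and each had reads in all 20 libraries. The study sorted epidermal cells by flow cytometry to compare basal keratinocytes with high surface Thy1 against those without it, and against the other epidermal populations. Hair follicle stem cells (HFSCs) were sorted as α6+Sca1-CD34+ cells (4 libraries), dendritic epidermal T cells (DETCs) as α6-Sca1lowThy1+ cells (5 libraries), and interfollicular basal keratinocytes as α6+Sca1+Thy1hi (4 libraries) or α6+Sca1+Thy1- cells (4 libraries). A further 3 libraries came from Thy1hi cells that also carried EYFP (YFP+), the reporter switched on where a Thy1-driven, inducible Cre has recombined the Rosa26 locus. Their surface marker is given as ScaI- in one label, whereas their titles and the methods give Sca1+. The methods describe wild-type C57BL/6J animals for the first 4 populations, whereas the labels give Thy1.2CreERT2-Rosa26-EYFP and no treatment for every sample. Labelled ages span 8 to 27 weeks, a different one for each sample, whereas the methods describe mice 8 weeks old. Age as labelled and population cannot be told apart, since the labelled ages run from 8 to 11 weeks in HFSCs, 12 to 16 in DETCs, 17 to 19 in YFP+ cells, 20 to 23 in Thy1hi cells and 24 to 27 in Thy1- cells. The study gives the sorted RNA both as pooled mice and as numbers of mice, so whether a library is a pool or an animal is not settled, and the p-values measure the spread between these libraries, which may be partly technical.

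AP-1 is a dimer of basic leucine zipper (bZIP) proteins in which a Fos protein pairs with a Jun protein, or Jun proteins pair with each other. The dimers bind the element TGACTCA, or related elements such as TGACNTCA when an ATF or CREB protein takes part. Fos, Fosb, Egr1, Ier2, Jun, Junb and Atf3 are immediate early genes, transcribed within minutes of a stimulus from factors already present in the cell, and their transcripts are short-lived. Tissue dissociation and sorting are known stimuli of these genes, and their part in the levels measured here was not tested. In epidermis AP-1 takes part in proliferation, differentiation, wounding and inflammation.

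Control elements through which these genes respond lie before the first transcribed base, and windows of 240 bases from 250 to 11 bases before the RefSeq start (GRCm38.p6) were read for the 7 members with an entry. For Fosl2 and Atf3 that start is internal: both windows lie inside the gene as the count table places it, and all 240 bases of the Fosl2 window are annotated as exon. The promoters of Fos, Fosb, Jun and Junb are shown because they hold a match to an AP-1 or cAMP-response element. They lie at chr12:85473640-85473879 (plus strand), chr7:19310056-19310295 (minus strand), chr4:95052233-95052472 (minus strand) and chr8:84978759-84978998 (minus strand). Capitals mark TGACG, TGACNTCA and TATAAA as they read on the gene's strand.
Fos: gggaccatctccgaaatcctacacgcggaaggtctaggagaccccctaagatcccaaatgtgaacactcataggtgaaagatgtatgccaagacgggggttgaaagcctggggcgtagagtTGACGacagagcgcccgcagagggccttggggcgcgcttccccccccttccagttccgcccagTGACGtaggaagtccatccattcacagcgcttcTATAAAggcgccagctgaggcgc
Fosb: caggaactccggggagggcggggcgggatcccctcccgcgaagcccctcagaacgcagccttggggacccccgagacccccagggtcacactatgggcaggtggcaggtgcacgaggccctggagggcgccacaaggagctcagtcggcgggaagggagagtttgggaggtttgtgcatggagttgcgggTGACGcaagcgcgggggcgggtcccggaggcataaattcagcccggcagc
Jun: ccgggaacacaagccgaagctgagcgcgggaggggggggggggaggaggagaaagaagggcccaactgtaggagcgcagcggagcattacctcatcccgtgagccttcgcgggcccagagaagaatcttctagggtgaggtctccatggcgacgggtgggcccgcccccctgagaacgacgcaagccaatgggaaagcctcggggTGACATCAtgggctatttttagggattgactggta
Junb: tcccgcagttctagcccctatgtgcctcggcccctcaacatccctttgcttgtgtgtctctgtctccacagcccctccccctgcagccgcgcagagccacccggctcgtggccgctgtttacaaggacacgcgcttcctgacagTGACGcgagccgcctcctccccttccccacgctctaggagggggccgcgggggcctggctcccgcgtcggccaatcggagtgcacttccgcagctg
The letters TGACG, the core of a cAMP-response element, were found 2 times in the Fos window, once in Fosb and once in Junb, and 16.9% of the 32851 promoter windows of the same length hold them on either strand. In Fos the match nearest the start lay from base -66 to -62, and a TATAAA box, which 12.1% of windows hold, lay from -33 to -28. The Jun window held TGACATCA from -45 to -38, a match to TGACNTCA, which 7.17% of windows hold. No window of the 7 members held TGACTCA, the classical AP-1 element (4.35% of windows), or a CArG box, the element of serum response factor (1.44%). The GC box GGGCGG was found 5 times in Atf3, 3 times in Fosb, and once each in Fos, Fosl2 and Jun (31.3% of windows), where the Atf3 and Fosl2 windows are the internal ones, and CCAAT once each in Jun and Junb (33.0%). These are matches of letters in a short window on both strands, not shown to be bound.

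The 20 libraries held 7781256 to 12982393 reads assigned to genes, of which the ribosomal RNA gene Rn45s took 13.1 to 41.5%. Every member had at least 28 reads in each library, and all 10 passed the filter on low values, as did 17204 genes in total. The sorted populations carried their markers: the summed normalized count of 8 T cell markers was 20812 to 42263 in DETCs and 128 to 454 elsewhere, and that of 6 hair follicle stem cell markers was 6750 to 10753 in HFSCs and 830.1 to 3110.1 elsewhere. The 7 basal keratinocyte markers summed to 76089 to 270574 in the 4 keratinocyte populations and to 12376 to 58632 in DETCs, so transcripts of keratinocyte markers were also measured in the T cell libraries. The Thy1 transcript was at 511 to 775 in Thy1hi, 468 to 1546 in YFP+, 63.1 to 77.8 in Thy1-, 18.2 to 85.4 in HFSC and 1163 to 2260.2 in DETC libraries. In bulk RNA such as this, fewer cells of a type and less RNA per cell cannot be told apart.

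One library stood apart for all of these genes. In HFSC replicate 4 each of the 10 members was lower than the mean log2 value of the other 3 HFSC libraries, by 2.58-fold for Fosl2 and by 86.3-fold for Fosl1 at the ends of the range. The median log2 difference of the members was -4.49, against 0.02 over all genes tested, of which 15.7% were at least 2-fold lower and 14.9% at least 2-fold higher in that library. Of 38 other immediate early genes, 37 were at least 2-fold lower (median log2 difference -2.95), as were 10 of 16 heat shock genes, 13 of 26 other bZIP genes and 12 of 17 AP-1 target genes, but 4 of 25 upstream kinases and factors. The same library had 27.4% of its reads from the mitochondrial genome, against 4.38 to 11.9% in the other 19, and the lowest Rn45s share, 13.1%. Krt14, a basal keratin, was at 9872 there and at 26882 to 29855 in the other HFSC libraries, and the 5 Langerhans cell markers summed to 408 against 3406 to 5502. The 6 hair follicle stem cell markers summed to 6750 against 9405 to 10753. Of these, Cd34, the sorted surface marker, was at 2032 against 1599.8 to 2622, so it did not follow the lower sum. The part of these differences in the low values was not tested, and each comparison is therefore given with all libraries and without HFSC replicate 4, a setting in which the shared estimate of spread is also smaller.

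**Figure D1:**
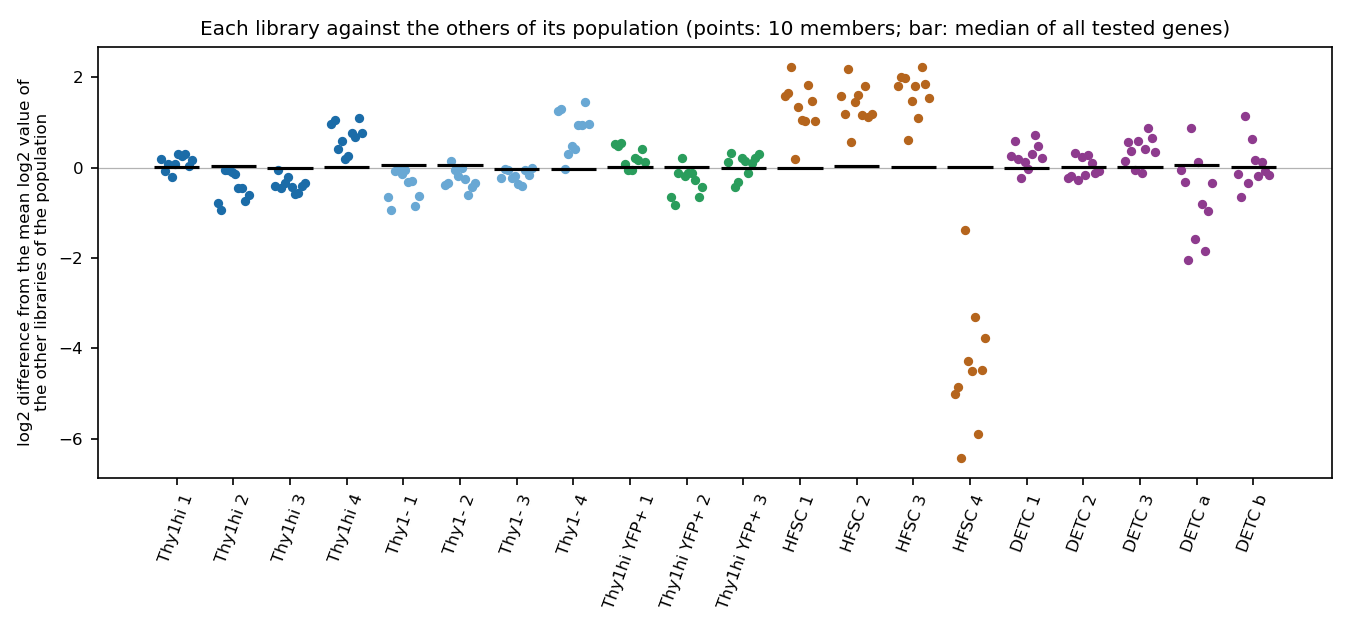
Log2 difference of each of the 10 members (points) in each library from the mean log2 value of the other libraries of its population; the bar is the median over all genes tested. HFSC 4 lies between -6.43 and -1.37 for the members while its bar is at 0.02, HFSCs 1 to 3 lie above 0 since their mean includes HFSC 4, and Thy1hi 4 and Thy1- 4 are raised for most members.

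DETC a, one of the 5 DETC libraries, differed from the mean log2 value of the other 4 for some members only. Its Fosl1 was 4.14-fold lower, Atf3 3.60-fold lower, Jun 2.99-fold lower, Egr1 1.93-fold lower and Jund 1.75-fold lower, while Fosl2 was 1.84-fold higher and Fos differed by 1.03-fold. Over all genes tested, 19.7% were at least 2-fold lower and 10.7% at least 2-fold higher in DETC a. Of the members, 3 were at least 2-fold lower and 0 at least 2-fold higher, so gaps of this size were not particular to them. Markers moved with these differences of the members. The basal keratinocyte sum was 12376 in DETC a and 42181 to 58632 in the other DETC libraries. The differentiated keratinocyte sum was 3908 against 16300.4 to 25819, and the T cell sum 42263 against 20812 to 29768. Their part in the DETC values was not tested. Thy1hi 4 and Thy1- 4 were high together: Fos was 1.97-fold and 2.40-fold above the other libraries of its population, Fosb 2.08-fold and 2.46-fold, and Egr1 2.14-fold and 2.74-fold, whereas Fosl1 was 1.34-fold higher and 1.02-fold lower. Both libraries also stood apart over all genes tested, of which 18.4% and 19.0% were at least 2-fold lower and 4.35% at least 2-fold higher in each. The differentiated keratinocyte sum was 27012.5 in Thy1hi 4 and 8730.3 to 12554 in the other Thy1hi libraries, and 40231 in Thy1- 4 and 26816 to 37195 in the other Thy1- libraries. The part of these differences in the values of the members was not tested.

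The Fos proteins supply the dimer partner that cannot pair with itself. Fos (ENSMUSG00000021250, chr12:85473890-85477273, plus strand, mm10) is the founding member and the standard immediate early transcript. Its normalized counts were 12419, 12337, 13931 and 399 in HFSCs 1 to 4 and 10067, 7596, 9417, 8431 and 8002 in DETCs 1, 2, 3, a and b. In keratinocytes Fos was at 11138, 6450.3 and 9263 in YFP+ cells, 11683, 7022, 8543 and 17509 in Thy1hi cells and 5415, 6181, 6693 and 14599 in Thy1- cells. The first 3 HFSC libraries lay above all 5 DETC libraries, and the Thy1hi, Thy1- and YFP+ libraries overlapped with DETCs. Fosb (ENSMUSG00000003545, chr7:19302696-19310051, minus strand), its close relative, was at 10901, 8542, 13053 and 369 in HFSCs and 10456, 6754, 10279, 6283 and 5241 in DETCs. Fosb was at 7866, 4294 and 7274 in YFP+, 7163, 4593, 7266 and 12909 in Thy1hi and 3785, 5136, 6096 and 12098 in Thy1- cells. Every pair of populations overlapped for Fosb apart from HFSCs 1 to 3 against YFP+ cells.

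Fosl1 (Fra-1; ENSMUSG00000024912, chr19:5447703-5455945, plus strand), a Fos protein without a strong activation domain that is linked to migrating and wounded keratinocytes, was at 1871, 1826, 1645 and 19.6 in HFSCs and 945, 1011, 1040.4, 270.3 and 1591 in DETCs. It was at 2161, 1596 and 1381 in YFP+, 2863, 2675, 2166 and 3429 in Thy1hi and 1968, 2205, 1997 and 2006 in Thy1- cells. All 8 Thy1hi and Thy1- libraries lay above all DETC libraries, and DETC b, at 1591, came within the range of the YFP+ libraries. The 19.6 in HFSC 4 rested on 28 reads. Against DETCs the limma log2 fold change of Fosl1 was 1.70 ± 0.89 in Thy1hi cells (3.25-fold, limma adjusted p = 0.149; 2.9e-04 without HFSC replicate 4), 1.27 ± 0.89 in Thy1- cells (0.299; 0.0040) and 0.99 ± 0.97 in YFP+ cells (0.461; 0.0294).

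Fosl2 (Fra-2; ENSMUSG00000029135, chr5:32135801-32157842, plus strand) had the widest separation of any member. Its normalized counts were 13989, 13684, 15585, 26034 and 13299 in DETCs and 2110.1, 2576, 2634 and 939 in HFSCs. In keratinocytes Fosl2 was at 1377, 1474 and 1153 in YFP+, 1748, 1891, 1628 and 2625 in Thy1hi and 2014, 1977, 1798 and 2373 in Thy1- cells. The lowest DETC library was at 13299 and the highest of the other 15 at 2634, so no library of another population came near the DETCs. Against DETCs the limma log2 fold change was -3.04 ± 0.26 (SE) in Thy1hi cells (8.22-fold lower, adjusted p = 1.4e-08), -2.97 ± 0.26 in Thy1- cells (7.85-fold, 1.9e-08), -3.59 ± 0.29 in YFP+ cells (12.0-fold, 5.1e-09) and -3.06 ± 0.26 in HFSCs (8.33-fold, 1.3e-08). Without HFSC replicate 4 the HFSC value was -2.72 ± 0.21 (6.57-fold). All 130 fits of these comparisons under 33 settings called Fosl2 lower, with log2 fold changes from -3.66 to -2.54 and a highest adjusted p of 5.3e-05.

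**Figure D2:**
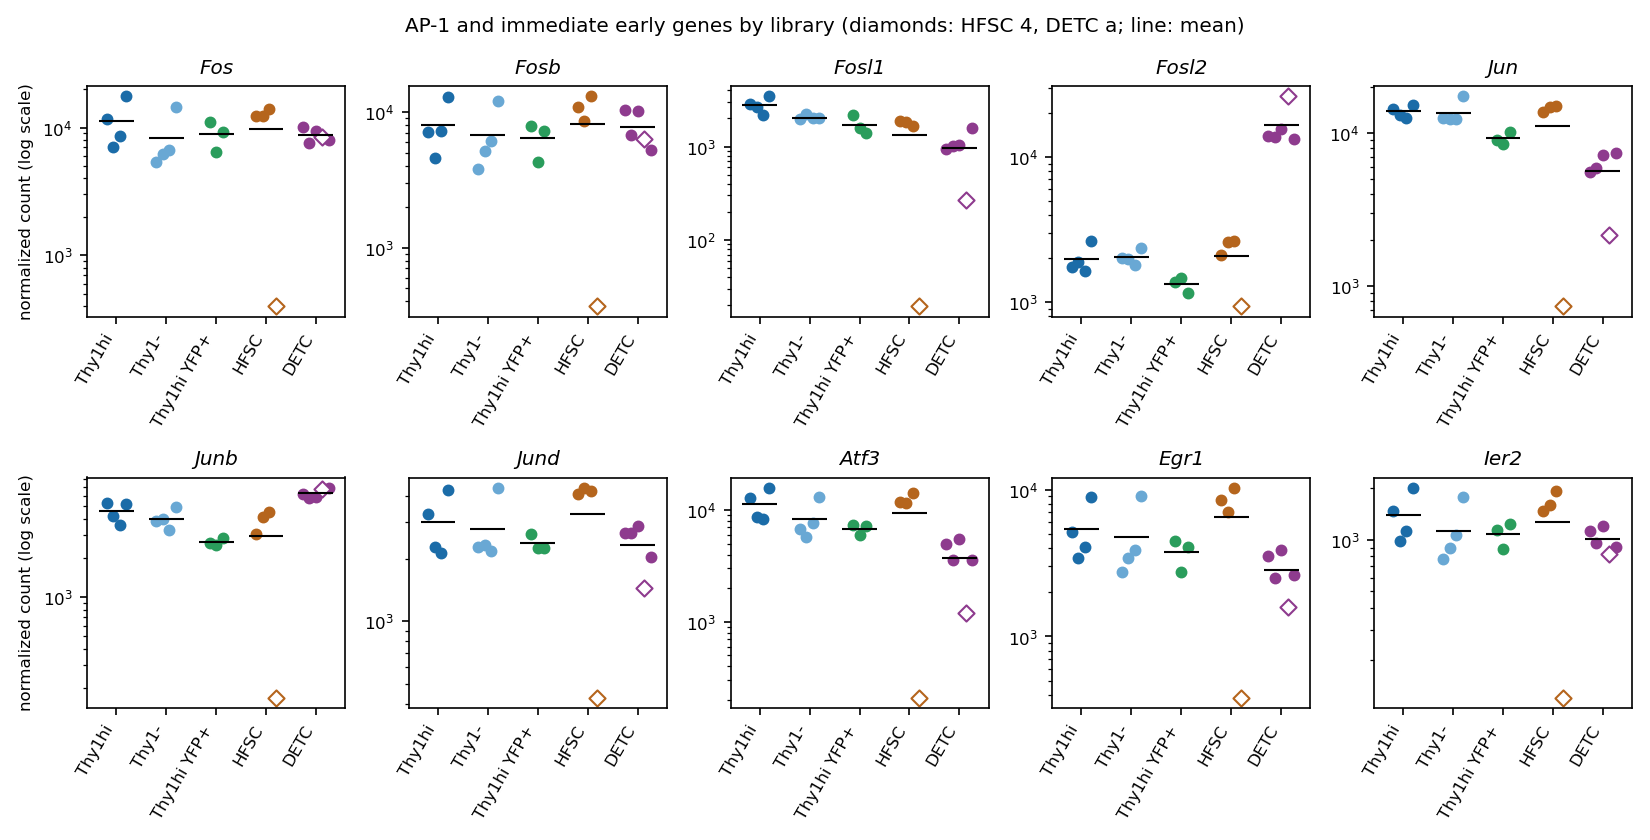
Normalized count of each member in all 20 libraries, one panel per gene, with a log axis; points are libraries, lines are population means, and diamonds mark HFSC 4 and DETC a. Fosl2 in DETCs, from 13299 to 26034, is clear of every other population, and HFSC 4 sits below the rest of its population in all 10 panels.

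The Jun proteins can pair with each other and with every Fos protein. Jun (ENSMUSG00000052684, chr4:95049034-95052222, minus strand), the activator of the group, was at 13780.1, 14687, 14911 and 741 in HFSCs and 5589, 5913, 7212, 2164 and 7378 in DETCs. It was at 8990.2, 8499 and 10207 in YFP+, 14421, 13145, 12418 and 15192 in Thy1hi and 12493, 12288, 12251 and 17277 in Thy1- cells. Every keratinocyte library except HFSC 4 lay above every DETC library, and the YFP+ libraries lay below all Thy1hi and Thy1- libraries. Against DETCs the limma log2 fold change was 1.40 ± 0.61 (SE) in Thy1hi cells (2.64-fold, adjusted p = 0.0820; 2.4e-04 without HFSC replicate 4), 1.37 ± 0.61 in Thy1- cells (2.58-fold, adjusted p = 0.0934; 3.7e-04) and 0.82 ± 0.67 in YFP+ cells (1.77-fold, adjusted p = 0.365; 0.0259). The first 2 of these separations had an exact permutation p of 0.00794, the smallest that 4 against 5 libraries allow. In HFSCs the value moved from 0.40 ± 0.61 with all libraries to 1.47 ± 0.29 without replicate 4 (adjusted p = 4.2e-04).

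Junb (ENSMUSG00000052837, chr8:84974484-84978718, minus strand), which often opposes Jun and restrains proliferation, ran the other way. Its normalized counts were 6183, 5742, 5845, 6696 and 6865 in DETCs and 3049, 4082, 4529 and 168 in HFSCs. In keratinocytes Junb was at 2589.7, 2489 and 2839 in YFP+, 5252, 4203, 3596 and 5184 in Thy1hi and 3844, 3948, 3285 and 4898 in Thy1- cells. All DETC libraries were above all keratinocyte libraries, and the 3 YFP+ libraries lay below every Thy1hi and Thy1- library. Against DETCs the limma log2 fold change was -0.47 ± 0.60 in Thy1hi cells (adjusted p = 0.604; 0.0195 without HFSC replicate 4), -0.66 ± 0.60 in Thy1- cells (0.442; 0.0022) and -1.25 ± 0.66 in YFP+ cells (0.146; 7.4e-06). In HFSCs Junb was called lower with all libraries at -1.83 ± 0.60 (adjusted p = 0.0200) and without replicate 4 at -0.70 ± 0.17 (0.0026), but with all libraries it missed the threshold when the 2 populations were fitted alone (limma adjusted p = 0.0974) and in edgeR (-1.07, adjusted p = 0.0775). Jund (ENSMUSG00000071076, chr8:70698949-70700616, plus strand), the most constitutive Jun gene, was at 4116, 4376, 4242 and 428 in HFSCs and 2671, 2653, 2863, 1445 and 2038 in DETCs. Jund was at 2633, 2251 and 2244 in YFP+, 3299.8, 2272, 2134 and 4268 in Thy1hi and 2279, 2336, 2176 and 4386 in Thy1- cells. Without replicate 4 HFSCs lay above all DETC libraries (limma log2 fold change 0.90 ± 0.26, adjusted p = 0.0090), and with it the value was 0.08 ± 0.49 (adjusted p = 0.915).

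Atf3 (ENSMUSG00000026628, chr1:191170296-191218039, minus strand) is a stress-induced bZIP factor that mostly represses its targets. Its normalized counts were 11705, 11529, 14338 and 209.5 in HFSCs and 4987, 3564, 5459, 1199 and 3572 in DETCs. Atf3 was at 7325, 5956 and 7142 in YFP+, 12801, 8743, 8251 and 15742 in Thy1hi and 6747, 5764, 7693 and 12986 in Thy1- cells. Every keratinocyte library except HFSC 4 was above the highest DETC library, 5459. The limma log2 fold change against DETCs was 1.72 ± 0.83 in Thy1hi cells (3.29-fold, adjusted p = 0.118; 4.3e-04 without HFSC replicate 4), 1.24 ± 0.83 in Thy1- cells (2.36-fold, 0.277; 0.0070), 1.02 ± 0.91 in YFP+ cells (2.03-fold, 0.413; 0.0332) and, in HFSCs, 0.43 ± 0.83 with all libraries and 1.90 ± 0.37 without replicate 4 (3.73-fold, 4.6e-04).

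Egr1 (ENSMUSG00000038418, chr18:34859823-34864984, plus strand), a zinc finger factor induced through the ERK pathway, was at 8518, 7070.4, 10255 and 383 in HFSCs and 3506, 2521, 3866, 1589 and 2603 in DETCs. It was at 4478, 2732 and 4060.2 in YFP+, 5171, 3436, 4097 and 8925 in Thy1hi and 2729, 3401, 3895 and 9051 in Thy1- cells. HFSCs 1 to 3 were above all DETC and YFP+ libraries, and Thy1hi 4 and Thy1- 4 reached the HFSC range. Against DETCs the limma log2 fold change in Thy1hi cells was 0.91 ± 0.66 (adjusted p = 0.321; 0.0332 without HFSC replicate 4), and in HFSCs it was 0.54 ± 0.66 with all libraries and 1.66 ± 0.36 without replicate 4 (3.16-fold, 0.0011). Ier2 (ENSMUSG00000053560, chr8:84661331-84662852, minus strand), a small nuclear immediate early protein, was at 1466, 1586, 1921 and 121 in HFSCs and 1126, 959, 1205, 823 and 908 in DETCs. Ier2 was at 1132, 882 and 1234 in YFP+, 1475, 980.0, 1129 and 2001 in Thy1hi and 773, 889.8, 1059 and 1767 in Thy1- cells. Its libraries overlapped between all populations except that HFSCs 1 to 3 lay above all DETC and YFP+ libraries.

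To compare levels between genes, the mean normalized count was divided by the length of the merged GENCODE exons in kilobases. Per kilobase, Atf3, Fos and Jun led in keratinocytes: in HFSCs without replicate 4 the levels were 5814 for Atf3, 5483 for Fos and 4534 for Jun, and in Thy1hi cells 5285, 4757 and 4326. In DETCs Fos led at 3700.2 per kilobase, followed by Junb at 2723, Jun at 1772, Atf3 at 1744 and Fosl2 at 1706. Without DETC a, Fos at 3729, Junb at 2676 and Jun at 2045 kept this order with Atf3 at 2041, and Jund at 1533 came before Fosl2 at 1461. Fosl2 was the lowest member per kilobase in each keratinocyte population, at 252 in HFSCs without replicate 4, 204 in Thy1hi, 211 in Thy1- and 138 in YFP+ cells. Within each gene the order of populations held few steps larger than the spread. With all libraries, 1 of the 40 steps between neighbouring populations passed the limma test, that of Fosl2 from DETCs to Thy1- cells (34.1% of all genes passed there). Without HFSC replicate 4, 5 of 40 did: Fosl2 from DETCs to HFSCs, Junb from DETCs to Thy1hi cells, and Fosl1, Jun and Atf3 from YFP+ cells down to DETCs. These 5 are comparisons with DETCs, in which 39.6 to 41.2% of all genes passed. Between keratinocyte populations 0.123 to 11.5% did.

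The comparisons with DETCs ask how AP-1 transcripts of epidermal T cells differ from those of the keratinocytes around them. They share the DETC libraries. With all libraries, 1 of 10 members (Fosl2, lower) passed at a limma adjusted p under 0.05 in Thy1hi cells against 36.6% of all genes tested, 1 (Fosl2) in Thy1- cells against 34.1%, 2 (Fosl2 and Junb, both lower; Fosl2 alone in edgeR and in limma on the 2 populations) in HFSCs against 39.7%, and 1 (Fosl2) in YFP+ cells against 38.1%. Without HFSC replicate 4 the count was 6 in Thy1hi cells (Atf3, Egr1, Fosl1 and Jun higher, Fosl2 and Junb lower) with a background of 39.6%. It was 5 in Thy1- cells (Atf3, Fosl1 and Jun higher, Fosl2 and Junb lower; background 37.2%) and 8 in HFSCs (Atf3, Egr1, Fosl1, Ier2, Jun and Jund higher, Fosl2 and Junb lower; background 40.5%). In YFP+ cells it was 5 (Atf3, Fosl1 and Jun higher, Fosl2 and Junb lower; background 41.2%). Leaving out both HFSC 4 and DETC a gave 5 in Thy1hi cells, where Egr1 no longer passed (background 36.7%), 5 in Thy1- cells (32.7%), 8 in HFSCs (34.7%) and 4 in YFP+ cells, where Atf3 no longer passed (38.0%). Fos and Fosb passed in none of these 12 counts. The median log2 fold change of the members against DETCs with all libraries was 0.39 in Thy1hi, 0.17 in Thy1-, -0.37 in HFSC and 0.09 in YFP+ cells, beside 0.0044, 0.09, -0.02 and -0.05 over all genes. Without HFSC replicate 4 the HFSC median turned to 0.82, beside -0.02 over all genes, and the other 3 medians stayed as they were.

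**Figure D3:**
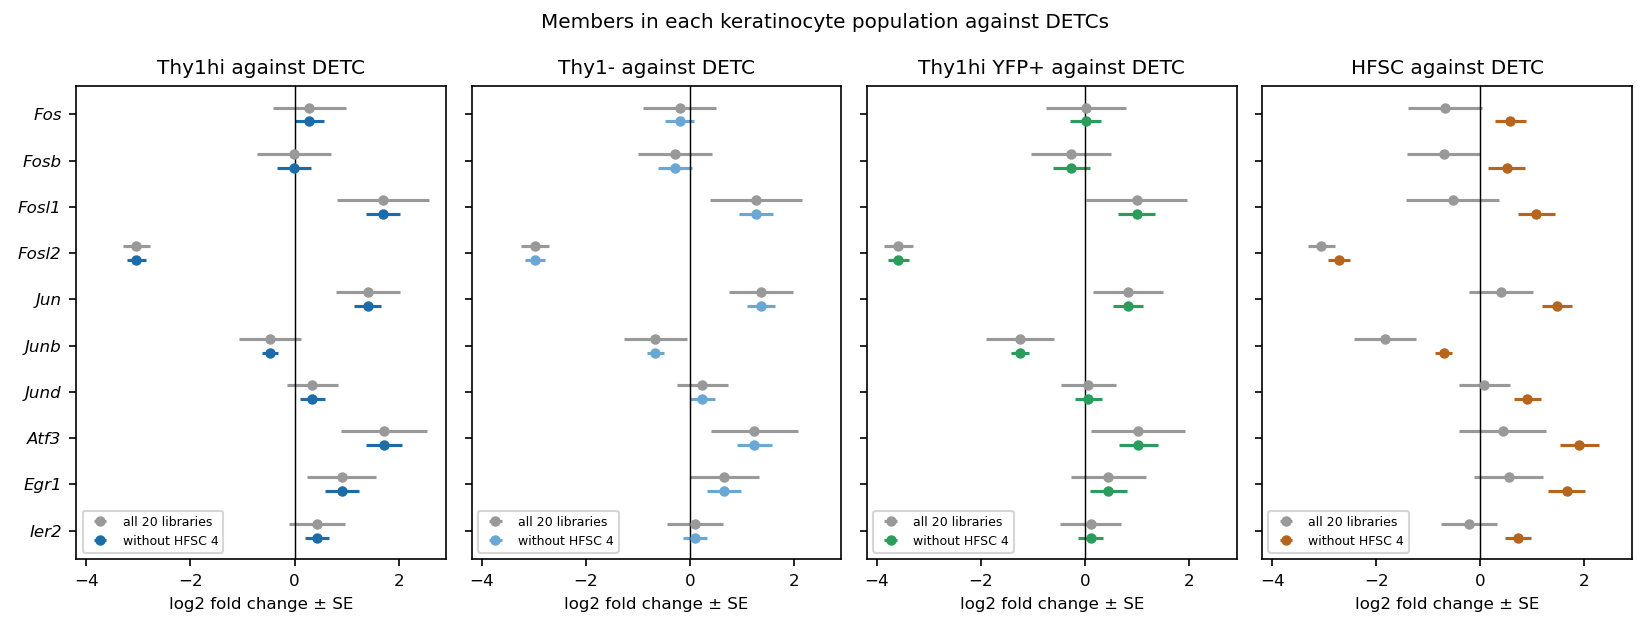
Log2 fold change of each member against DETCs from limma, one panel per keratinocyte population, with all 20 libraries (grey) and without HFSC 4 (coloured); bars are standard errors. Fosl2 lies at -2.72 or below in all 4 panels, Junb lies below 0 in all 4, and the HFSC panel is the one where leaving out HFSC 4 moves the points.

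Thy1hi against Thy1- keratinocytes asks how the Thy1-bearing basal cells of the study differ from their neighbours in the same layer. In the fit without a block no member passed in limma (0 of 10, and 0 at an unadjusted p under 0.05; 0.337% of all genes, and 0.463% without HFSC replicate 4), and edgeR and DESeq2 also called 0. Libraries with the same replicate number varied together in these populations (correlation 0.293 to 0.716), but so did some with different numbers (-0.651 to 0.514). With the replicate number as a block 2 members passed, Fosl1 (log2 fold change 0.43, limma adjusted p = 0.0339) and Atf3 (0.48, 0.0455), with 9.55% of all genes. Fos missed the threshold at 0.48 (adjusted p = 0.0598). Fos was higher in Thy1hi than in the Thy1- library of the same number in 4 of 4 pairs, by 1.14- to 2.16-fold, Fosl1 in 4 of 4, by 1.08- to 1.71-fold, and Atf3 in 4 of 4, by 1.07- to 1.90-fold. Junb and Ier2 were also higher in 4 of 4 pairs, Fosb, Jun and Egr1 in 3 of 4, and Fosl2 and Jund in 1 of 4. The blocked calls depended on which pairs were kept. A fit without a pair also holds fewer libraries, so a lost call does not by itself show a smaller fold change. In the fit without a block, leaving out single replicates gave a log2 fold change of 0.32 to 0.54 for Fosl1 and 0.30 to 0.72 for Atf3. Without pair 1 no member passed in limma (0 calls and 3 members at an unadjusted p under 0.05; background 8.29%), nor without pair 4 (0 calls and 4 members; 6.90%). Without pair 2 Fos and Fosl1 passed and Atf3 did not (8.17%), and without pair 3 Fosl1 and Atf3 passed and Fos did not (5.52%). Markers of other cells differed between these populations as well. The 6 fibroblast markers summed to 1946, 983, 186 and 404 in Thy1hi 1 to 4 and to 123 to 215 in Thy1- cells, the 7 differentiated keratinocyte markers to a median of 12259.6 against 32433, and the 6 hair follicle stem cell markers to 1144 to 1791 against 2548 to 3110.1. The 5 Langerhans cell markers summed to 1415 to 2048 in Thy1hi and 2196 to 2922 in Thy1- cells, and the 7 basal keratinocyte markers to 187875 to 261309 and 89525 to 157825. Their part in the differences of members and of the list genes given further on was not tested.

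YFP+ cells were compared with the populations of the same layer to see whether reporter-labelled cells carry the same transcripts. Against Thy1hi cells all 10 members had a negative log2 fold change and 0 passed in limma (0.0116% of all genes, and 0.123% without HFSC replicate 4). In the respective fits 0 and 2 members had an unadjusted p under 0.05, and edgeR and DESeq2 called 0. With the replicate number as a block, which leaves out Thy1hi 4, Fosb turned from -0.25 to 0.01 and the other members stayed negative. In that fit Fos went from -0.27 to -0.02, Jund from -0.28 to -0.09 and Egr1 from -0.46 to -0.18. Junb was lower by 1.71-fold (log2 fold change -0.77 ± 0.69, limma adjusted p = 0.794; 0.0790 without HFSC replicate 4) and Fosl2 by 1.46-fold (-0.55 ± 0.30, 0.605; 0.341). The YFP+ and Thy1hi libraries did not overlap for Jun and Junb (exact permutation p = 0.0286 for each, the smallest that 3 against 4 libraries allow), Fosl1 and Fosl2 (0.0571 for each) and Atf3 (0.0857). Against Thy1- cells 0 members passed in limma, edgeR or DESeq2 (limma background 0.761%, with 0 members at an unadjusted p under 0.05, and 2.02% without HFSC replicate 4, where 2 members had an unadjusted p under 0.05), and Fosl2 was at -0.61 ± 0.30 (adjusted p = 0.380; 0.152). Fosl2, Jun and Junb had no overlap between the YFP+ and Thy1- libraries (exact permutation p = 0.0286, 0.0286 and 0.0571). How many of all genes tested had no overlap between the YFP+ libraries and either population was not counted. These separations are therefore not read as a result about the members. Markers moved with these comparisons. YFP+ libraries had differentiated keratinocyte sums of 15522 to 57929.5 (8730.3 to 27012.5 in Thy1hi cells), T cell sums of 128 to 228 (252 to 454 in Thy1hi cells) and fibroblast sums with a median of 71.8 (693 in Thy1hi cells). Their Langerhans cell sums of 1317 to 1852 and hair follicle sums of 1143 to 2137 lay below, and their basal keratinocyte sums of 161789 to 270574 above, those of every Thy1- library. The part of these differences in the members was not tested.

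Comparisons with HFSCs turned on replicate 4. With all libraries no member passed in limma in Thy1hi (background 13.4%, 2 members at an unadjusted p under 0.05), Thy1- (6.08%, 0 members) or YFP+ cells (11.6%, 0 members), and edgeR and DESeq2 called 0 in each. Without replicate 4 limma called 0 members in Thy1hi cells (11.5%, 0 at an unadjusted p under 0.05), 0 in Thy1- cells (5.96%, 5 unadjusted) and 1 in YFP+ cells (10.9%), Fosl2, at -0.87 ± 0.23 (1.83-fold lower, adjusted p = 0.0185). The direction turned with that library and with the method. In limma with all libraries 10 of 10 members had a positive log2 fold change in Thy1hi and in Thy1- cells against HFSCs, and without replicate 4, 2 of 10 did. With all libraries kept, edgeR and DESeq2 each gave a positive log2 fold change for 6 of 10 members in Thy1hi cells and for 3 of 10 in Thy1- cells. Egr1 went from 0.36 ± 0.70 to -0.75 ± 0.37 in Thy1hi cells and from 0.12 ± 0.70 to -1.002 ± 0.374 in Thy1- cells, and Fos in Thy1- cells from 0.48 ± 0.74 to -0.77 ± 0.31. Leaving out Thy1hi 4 and Thy1- 4 as well, the libraries in which Fos, Fosb and Egr1 were high, gave 2 lower members in Thy1hi cells (Egr1 and Jund; background 18.6%), 5 in Thy1- cells (Egr1, Fos, Fosb, Ier2 and Jund; 17.6%) and 4 in YFP+ cells (Egr1, Fosl2, Ier2 and Jund; 12.0%). The replicate number was also used as a block, although the numbers did not pair these libraries. With it 0 members passed in Thy1hi (background 10.5%) and 0 in Thy1- cells (3.31%). In YFP+ cells, where the block leaves out HFSC 4, 7 members were lower (14.6%), with Egr1 at a log2 fold change of -1.21 (limma adjusted p = 0.0044). Without pair 4, 1 member was higher and 4 lower in Thy1hi cells (30.3%), and 6 were lower in Thy1- cells (25.3%). In these fits Egr1 was lower in Thy1hi (-1.03, limma adjusted p = 0.0014) and Thy1- cells (-1.36, 0.0018). Langerhans cell markers summed to 3406 to 5502 in HFSCs 1 to 3 and at most 2922 in the other keratinocyte populations, and the 5 melanocyte markers to 724 to 914 and at most 276. The part of these markers in the comparisons was not tested.

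Other genes of the pathway were read from 5 lists, without HFSC replicate 4 unless stated. Of 38 other immediate early genes, 14 were higher and 11 lower in Thy1hi cells than in DETCs, 12 and 12 in Thy1- cells, 15 and 13 in HFSCs, and 7 and 12 in YFP+ cells; with all libraries the counts were 4 and 7, 3 and 8, 2 and 14, and 1 and 9. The share of the list called in Thy1hi, Thy1-, HFSC and YFP+ cells was 65.8, 63.2, 73.7 and 50%, beside 39.6, 37.2, 40.5 and 41.2% of all genes tested, and with all libraries 28.9, 28.9, 42.1 and 26.3%, beside 36.6, 34.1, 39.7 and 38.1%. Npas4, a bHLH factor induced by calcium signals, was at a mean of 61.0 in DETCs and 4.44 in Thy1hi cells. It passed the filter on low values through the DETCs, so its fold change and test are not given, but the lower counts and the shares above include it. The orphan receptors Nr4a3 and Nr4a2 were lower in Thy1hi cells at levels well above the filter: Nr4a3 was at a mean of 1019 in Thy1hi cells and 11698 in DETCs (log2 fold change -3.48 ± 0.26, limma adjusted p = 2.9e-09), and Nr4a2 at 313 and 3841 (-3.49 ± 0.29, 8.9e-09). Plk3, a stress-responsive kinase, was at 221 and 1704 (-2.88 ± 0.22, 3.2e-09). Of the 26 tested bZIP partners outside the member list, 6 were higher and 12 lower in Thy1hi cells than in DETCs (6 and 9 with all libraries), 6 and 12 in Thy1- cells (5 and 8), 6 and 9 in HFSCs (4 and 10) and 4 and 12 in YFP+ cells (3 and 9). The lower counts and the shares include Batf and Batf3, which like Npas4 passed the filter on low values through the DETCs. They were at a mean of 65.3 and 68.7 in DETCs and at 1.45 and 1.47 in Thy1hi cells. The share called was 69.2, 69.2, 57.7 and 61.5%, beside 39.6, 37.2, 40.5 and 41.2% of all genes, and with all libraries 57.7, 50, 53.8 and 46.2%, beside 36.6, 34.1, 39.7 and 38.1%. Crem, a repressor of cAMP-driven transcription, was at 91.7 against 3333 (-5.13 ± 0.23, 5.9e-12). Ctgf, a target of mechanical signals, was at 2367 in HFSCs without replicate 4 and at 51.8 in Thy1hi cells (-5.40 ± 0.63, limma adjusted p = 1.4e-05). Csrnp1, an immediate early nuclear protein, was the one gene of its list that passed between YFP+ and Thy1hi cells, at 1061 against 1914 (-0.84 ± 0.14, 0.0282), and it did not pass with all libraries.

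Of 25 upstream kinases and factors, 5 were higher and 6 lower in Thy1hi cells than in DETCs, 3 and 10 in Thy1- cells, 3 and 8 in HFSCs and 4 and 7 in YFP+ cells; with all libraries the counts were 4 and 6, 3 and 7, 1 and 10, and 3 and 7. The share called in the 4 populations in that order was 44.0, 52.0, 44.0 and 44.0%, beside 39.6, 37.2, 40.5 and 41.2% of all genes. With all libraries it was 40, 40, 44 and 40%, beside 36.6, 34.1, 39.7 and 38.1%. Apart from 52.0% in Thy1- cells these shares lay near those of all genes, and no share of the 5 lists was tested against that of all genes. Mapk10, lower in HFSCs and YFP+ cells with all libraries, was at a mean of 13.7 in DETCs, near the filter value, and 0.27 and 2.84 in those cells. Srf, which drives Fos and Egr1 through CArG boxes, was higher in Thy1hi cells than in DETCs, at 959 against 381 (log2 fold change 1.34 ± 0.18, limma adjusted p = 8.1e-06), and its ETS partner Elk4 was lower, at 1030.2 against 2199 (-1.06 ± 0.17, 4.4e-05). Among 17 tested AP-1 target genes 4 were higher and 2 lower in Thy1hi cells, 4 and 2 in Thy1- cells, 1 and 4 in HFSCs and 7 and 2 in YFP+ cells; with all libraries they were 4 and 2, 2 and 2, 0 and 4, and 6 and 2. The share called was 35.3, 35.3, 29.4 and 52.9%, and with all libraries 35.3, 23.5, 23.5 and 47.1%, in both cases below that of all genes in the first 3 populations and above it in YFP+ cells. The YFP+ share includes Mmp1b and Mmp13, at a mean of 41.3 and 68.3 in YFP+ cells and 1.20 and 5.16 in DETCs. The filter on low values kept these genes through cells other than DETCs, so the YFP+ share is not read as a result. Plaur, the urokinase receptor, was at 31.8 in Thy1hi cells and 335 in DETCs (-3.34 ± 0.40, limma adjusted p = 1.5e-06). Between Thy1hi and Thy1- cells, in the fit without a block, 1 gene of the 5 lists passed, the chemokine Ccl2, at 12.3 against 64.3 (-2.29 ± 0.37, limma adjusted p = 0.0083), and it passed with all libraries too. With the replicate number as a block, beside 9.55% of all genes, 6 AP-1 targets were higher and 3 lower of 15 tested, 9 other immediate early genes higher and 3 lower of 37, 1 bZIP partner higher and 1 lower of 24, 2 upstream factors higher of 24, and 3 heat shock genes lower of 16. In that fit Mmp3, a matrix protease, was at 117 in Thy1hi and 17.4 in Thy1- cells (2.76 ± 0.24, limma adjusted p = 1.2e-05), the matricellular protein gene Cyr61 at 3182 and 1459 (1.14 ± 0.11, 2.0e-05), and Ivl, the cornified envelope precursor involucrin, at 223 and 533 (-1.32 ± 0.20, 7.0e-04). The fibroblast, differentiated keratinocyte, hair follicle, Langerhans cell and basal keratinocyte marker sums given above differed along with these genes. In YFP+ cells Mmp3 was at 317 against 17.4 in Thy1- cells (4.10 ± 0.81, limma adjusted p = 0.0149). Of 16 heat shock genes, which report stress, 2 were higher and 4 lower in Thy1hi cells than in DETCs, 3 and 4 in Thy1- cells, 5 and 5 in HFSCs and 5 and 5 in YFP+ cells; with all libraries they were 1 and 4, 1 and 4, 2 and 5, and 2 and 5. The share called was 37.5, 43.8, 62.5 and 62.5%, below that of all genes in Thy1hi cells and above it in the other 3, and with all libraries 31.2, 31.2, 43.8 and 43.8%, below it in Thy1hi and Thy1- cells and above it in HFSCs and YFP+ cells. Hspa5, a chaperone of the endoplasmic reticulum, was at 4767 in Thy1hi cells and 17465 in DETCs (-1.78 ± 0.27, 2.8e-05), and the small chaperone Hspb1 at 1478 and 554 (1.54 ± 0.32, 7.5e-04).

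Members were compared across libraries after the mean of each population was removed. Over all 20 libraries the 45 pairs of members had a median Pearson r of 0.924, from 0.541 for Fosl2 with Jun to 0.991 for Fos with Ier2, and a median Spearman rho of 0.797. Over the 19 libraries without HFSC 4 the median r was 0.525, from -0.567 for Fosl1 with Fosl2 to 0.953 for Egr1 with Ier2, and 42 of 45 pairs stayed above 0. Over the 18 libraries without HFSC 4 and DETC a it was 0.607, from -0.0420 for Fosb with Fosl1 to 0.973 for Fos with Egr1. Fos, Fosb, Egr1, Ier2, Atf3 and Jund, with a median r to the other members from 0.782 to 0.893 in these 18 libraries, varied together, Jun, Junb and Fosl2 less so (0.659, 0.586 and 0.543), and Fosl1 least (0.188). These points share a library, its depth and its preparation, and the values are a description.

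**Figure D4:**
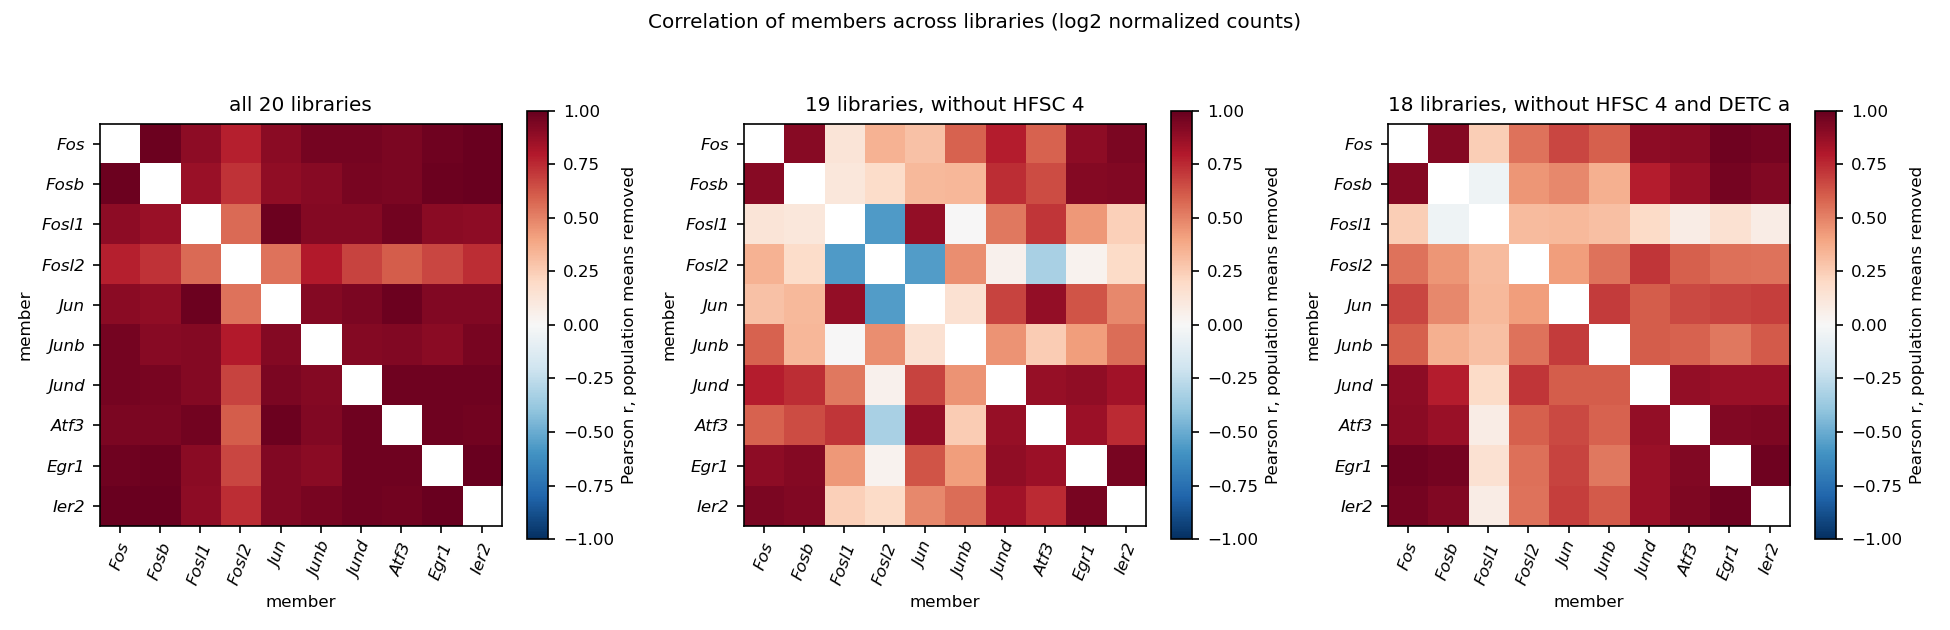
Pearson r between the log2 values of the 10 members after removal of population means, over all 20 libraries, over 19 without HFSC 4 and over 18 without HFSC 4 and DETC a (colour gives r). The median over pairs is 0.924, 0.525 and 0.607, and Fosl1 is set off from the others in the last panel.

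Among the genes tested other than the 10 members, those whose log2 levels over the 20 libraries were most like those of a member by Pearson r differed between members. Fosl2 was most like Fgd3 (r = 0.994), Ikzf1 (0.989) and Spn (0.989), of which the last 2 are genes of blood cells, and without HFSC 4 Fgd3 stayed first (0.995). Junb was most like Csrnp1 with and without HFSC 4 (0.991 and 0.943). Jund was most like Btg2 (0.927), and without HFSC 4 like Trnp1 (0.911). Fos was most like Zfp36 (0.950), Ier2 and Fosb like Btg2 (0.959 and 0.947), Atf3 and Jun like Dusp1 (0.981 and 0.949), Egr1 like Dusp6 (0.929) and Fosl1 like the wound keratin Krt16 (0.965). Without HFSC 4 none of these 7 kept its first gene: Fos was then most like Prr12 (0.909), Fosb like Smarcc2 (0.926), Jun like Peli2 (0.982), Atf3 like Capns2 (0.972), Egr1 like Clstn1 (0.946), Ier2 like Prr12 (0.940) and Fosl1 like 2310007B03Rik (0.987).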

How the data were processed

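RNA from sorted mouse epidermal cells was sequenced in 20 libraries. The authors aligned reads with STAR to mm10 and counted them per gene with featureCounts (versions and strand setting not given in the sources used here); they deposited 1 table of DESeq2-normalized counts, a signal equal to reads divided by a size factor (0.729 to 1.43). The labels name Illumina kits or, for libraries run on another instrument, a SMARTer stranded kit, without saying which library had which, so no value within a kit can be given. Of the 5 DETC columns, 2 carry numbers that no sample title holds; they were matched to the DETC samples as a group and are called a and b here. The column taken as Thy1hi replicate 3 has an extra number in its name, and the column letter in that sample's label points to it. All deposited values of this signal were whole reads within 0.1 read after multiplication by the size factor, so whole reads were recovered (100% in every library). One column (Thy1- replicate 4) held 3212 genes in the row order of names sorted without hyphens and was put back (correlation with the other Thy1- libraries at those genes 0.0606 before, 0.932 after); no member was moved.

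Genes at 10 or more in at least 3 libraries (17204) were fitted with limma 3.58.1 (R 4.3.3; trend) on log2(value + 1), 1 mean per population over all 20 libraries, with Benjamini-Hochberg adjustment over all genes and a threshold of 0.05, two-sided. Fold changes are on that scale. Single members were also tested by a two-sided exact permutation test of mean log2 values (scipy 1.17.1; smallest p 0.0286 for 4 against 4 and 3 against 4, 0.00794 for 4 against 5, 0.0179 for 3 against 5, 0.100 for 3 against 3). Alternatives were edgeR 4.0.16 (quasi-likelihood) and DESeq2 1.42.0 on the recovered reads, other pseudocounts (0.1 and 10), filters, scalings and sample sets, and each replicate left out. Combined omissions of libraries, omissions of pairs under the block, and the block for the gene lists were chosen after seeing the data. For Thy1hi against Thy1- libraries the same-number correlation of deviations from group means was 0.293 to 0.716 in all 4 pairs, so the numbers were taken to pair these samples; the pairing comes from the data, not the labels, and no other comparison met this (lowest -0.232 to -0.0212). The members and gene lists were chosen with earlier results of these data known. From each list, up to 4 called genes with the largest fold change and no overlap between populations could be named, and for each member the 3 genes of highest Pearson r. Besides the markers given in the report, 5 melanocyte markers summed to 96.0 to 996 per library, 6 fibroblast markers to 44.6 to 1946, 4 endothelial markers to 19.8 to 93.6 and 4 sebaceous gland markers to 753 to 5923. The code was tested on simulated data.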

Additional observations from a re-analysis of the deposited data

Results flagged for a closer look

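A library was singled out where its gap to the nearest other library of its population exceeded the 95% critical value of Dixon's test relative to the whole range, in populations of 4 or 5 libraries. This was so in 15 of 40 groups of values (10 members in 4 populations), 9 of them HFSC replicate 4; chance marks about 1 in 20 groups, and the 10 members share their libraries.

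HFSC replicate 4 was singled out as low for Fos (399 against 12337 to 13931 in the other HFSC libraries), Fosb (369 against 8542 to 13053), Fosl1 (19.6 against 1645 to 1871), Jun (741 against 13780.1 to 14911), Junb (168 against 3049 to 4529), Jund (428 against 4116 to 4376), Atf3 (209.5 against 11529 to 14338), Egr1 (383 against 7070.4 to 10255) and Ier2 (120.5 against 1466 to 1921). DETC a was singled out as high for Fosl2 (26034.5 against 13299 to 15585 in the other DETC libraries) and as low for Jun (2164 against 5589 to 7378) and Atf3 (1199 against 3564 to 5459). Thy1- replicate 4 was singled out as high for Jun (17277 against 12251 to 12493) and Jund (4386 against 2176 to 2336), and Thy1- replicate 2 for Fosl1 (2205 against 1968 to 2006). For Fosl1 in Thy1- cells the libraries lie within 1.12-fold of each other.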

How the results depend on the processing

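Of 1092 fold change values (33 fold changes under all alternatives), 992 kept their direction and side of the threshold, 74 kept direction and passed only under the alternative, 2 no longer passed and 24 turned direction; the cause was not tested. Counts of members called that moved were as follows, with the share or number of all genes called in brackets. Thy1hi against Thy1-: 2 with the replicate block (9.55%), and 2 without pair 2 (8.17%) or pair 3 (5.52%). Thy1hi against HFSC: 2 without HFSC 4, Thy1hi 4 and Thy1- 4 (the replicates 4 below; 18.6%), and 5 with the replicate block without pair 4 (30.3%). Thy1- against HFSC: 5 without the replicates 4 (17.6%) and 6 with the replicate block without pair 4 (25.3%). Thy1hi against DETC, main count 1: 6 from only the 2 populations (6059 of 15557 genes), 3 with edgeR (35.3%) and 3 with DESeq2 (38%). Omissions gave 5 without the replicates 4 (37.7%) and 5 without HFSC 4 and DETC a (36.7%). With single replicates left out it was 1 to 6 (39.6% without HFSC 4, which gave 6). Thy1- against DETC, main 1: 2 after quantile normalization (6625 of 17204 genes), 2 with DESeq2 (35.9%) and 5 from only the 2 populations (5479 of 15851 genes). Omissions gave 5 without the replicates 4 (36.1%) and 5 without HFSC 4 and DETC a (32.7%). With single replicates left out it was 1 to 5 (37.2% without HFSC 4, which gave 5). HFSC against DETC, main 2: 1 from only the 2 populations (5746 of 15548 genes) and 1 with edgeR (38.8%). Omissions gave 9 without the replicates 4 (43.4%) and 8 without HFSC 4 and DETC a (34.7%). With single replicates left out it was 2 to 8 (40.5% without HFSC 4, which gave 8). YFP+ against HFSC, main 0: 7 with the replicate block, whose 3 pairs leave out HFSC 4 (14.6%), and 4 without the replicates 4 (12.0%). With single replicates left out it was 0 to 1 (10.9% without HFSC 4, which gave 1). YFP+ against DETC, main 1: 2 from only the 2 populations (5902 of 15157 genes) and 2 with DESeq2 (39.5%). Omissions gave 5 without the replicates 4 (42.8%) and 4 without HFSC 4 and DETC a (38.0%). With single replicates left out it was 1 to 5 (41.2% without HFSC 4, which gave 5). The replicate block changed no other count.

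Among these 33 fold changes, turned directions were all of fold changes that include HFSCs. Outside these 33, the replicate block turned Fosb in YFP+ against Thy1hi cells (-0.25 to 0.01). In YFP+ against Thy1- cells it turned Jund (-0.17 to 0.07), Atf3 (-0.22 to 0.02) and Egr1 (-0.21 to 0.15). Egr1 in Thy1hi against HFSC (main 0.36) was -1.03 without the replicates 4 and with the block without pair 4, -0.28 with edgeR and DESeq2, and -0.75 to 0.83 with single replicates left out. Fos in Thy1- against HFSC (main 0.48) was -1.08, -1.08, -0.25 and -0.25 under the same 4 settings and -0.77 to 0.94 with single replicates left out. Egr1 in Thy1- against HFSC (main 0.12) was -1.36, -1.36, -0.45 and -0.46, -0.25 without Thy1hi 4 and Thy1- 4, and -1.002 to 0.58 with single replicates left out. Jund and Atf3 in HFSC against DETC ran from -0.21 to 0.90 and from -0.13 to 1.90 with single replicates left out. Junb in HFSC against DETC stayed negative but missed the threshold from only the 2 populations (-1.83, adjusted p = 0.0974) and with edgeR (-1.07, 0.0775). The lowest read count behind a value of a member was 28, for Fosl1 in HFSC 4.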
